A study of Arabidopsis thaliana with 6 samples.

Results

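The genes described here are 10 Arabidopsis thaliana loci of sulfur nutrition. They were taken by locus from the 32627 loci on the array for their roles, when earlier results of these data were known. They are the sulfate transporter genes SULTR1;1 (AT4G08620), SULTR1;2 (AT1G78000) and SULTR2;1 (AT5G10180), the genes APR1 (AT4G04610), APR2 (AT1G62180) and APR3 (AT4G21990) of adenosine phosphosulfate reductase, and the sulfur deficiency genes SDI1 (AT5G48850), SDI2 (AT1G04770), LSU1 (AT3G49580) and LSU2 (AT5G24660). All 10 were measured, each by 1 transcript model. RNA came from roots of seedlings grown for 12 days on diluted Murashige and Skoog medium, and each sample was hybridised to a 1-colour NimbleGen array. In 3 samples the roots were kept in darkness and in 3 they were lit, each sample coming from its own plate. White light on the shoots had an intensity of 75 µmol photons per square metre and second in both groups, and the lit roots are the control in the labels. The labels name no accession, mutant or transgene. The comparison asks which of these transcripts differ between lit and dark roots of plants whose shoots are all lit.

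Plants take up sulfate through membrane transporters, activate it with ATP to adenosine phosphosulfate, and reduce it in plastids to sulfite and sulfide, from which cysteine and then glutathione are made. Adenosine phosphosulfate reductase is regarded as a main control point of this route, and its activity and transcripts are known to follow light and carbon supply. When sulfur is short, Arabidopsis roots raise a set of transcripts that includes high-affinity transporters and the SDI and LSU genes, for which the transcription factor SLIM1 is a central regulator.

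The values are log2 levels between 4.70 and 15.92, the same range on every array. Probes of different genes bind with different strength, so levels are compared between groups and not between genes. Across all transcript models, the Pearson correlation of light replicate 3 was 0.9885 with light replicate 1 and 0.9887 with light replicate 2, at the lower end of the within-group values of up to 0.9954, and the closest pair of arrays from different groups correlated at 0.9892. Root tissue was checked with 8 markers, among them SCR of the endodermis and COBL9 of root hairs. They ranged from 12.24 for PLT1 to 15.90 for CASP1 over the 6 arrays, and none passed the test. At an unadjusted p under 0.05, 2 of the 8 were lower in light and 0 higher, against 21.2% of all models in either direction. Only 1 of the 8 differences was positive. The mean level of the 8 root markers was 14.11 to 14.27 in dark and 14.04 to 14.06 in light roots, without overlap. The log2 of their summed linear level was 17.58 to 17.66 in dark and 17.46 to 17.54 in light. Of 8 shoot and leaf markers, 7 lay under 9 on every array, and the stomatal gene FAMA was under 7 on all 6. The exception was KNAT1, at 11.59 to 11.81 in dark and 12.67 to 13.12 in light roots, which passed as higher (1.13). STM, at 7.13 to 7.52 in dark and 6.38 to 6.58 in light roots, passed as lower (-0.84) at a low level. The mean level of the 8 shoot markers was 8.04 to 8.07 in dark and 7.96 to 8.28 in light roots. The log2 of their summed linear level was 12.14 to 12.31 in dark and 12.96 to 13.30 in light. That sum mostly follows KNAT1, the brightest of the 8, and none of the other 7 passed as higher. The part of either marker set in the results for the sulfur genes was not tested.

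Transcripts of 2 sulfur deficiency genes were higher in lit roots: SDI1 rose 2.07-fold and LSU2 rose 1.85-fold. The other 8 genes did not pass the test, and none of the 10 passed as lower. The light and dark values did not overlap for 8 of the 10 genes, 7 of them higher and SULTR1;1 lower in light. Over all 37118 models, 5.65% passed, 3.22% as higher and 2.43% as lower. Groups did not overlap for 28.4% of models, 12.0% being higher and 16.4% lower in light. At an unadjusted p under 0.05, 5 of the 10 genes were higher and 1 was lower in light. Of all 37118 models, 3338 were higher and 4518 lower at that threshold, 21.2% in either direction. Differences between light and dark ran from -0.76 to 1.05 on the log2 scale with a median of 0.25, against a median of -0.02 over all models. These are measurements of whole roots, in which more cells of a type and more RNA per cell cannot be told apart. The calls of SDI1 and LSU2 depended on every array except light replicate 3. Leaving out any 1 of the 3 dark arrays, or light replicate 1 or 2, left 0 of the 10 genes past limma's test, while without light replicate 3 SDI1, LSU2 and also LSU1 passed. In these fits with 5 arrays, 607 to 905 models over the whole array passed as higher, against 1196 with 6.

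**Figure D1:**
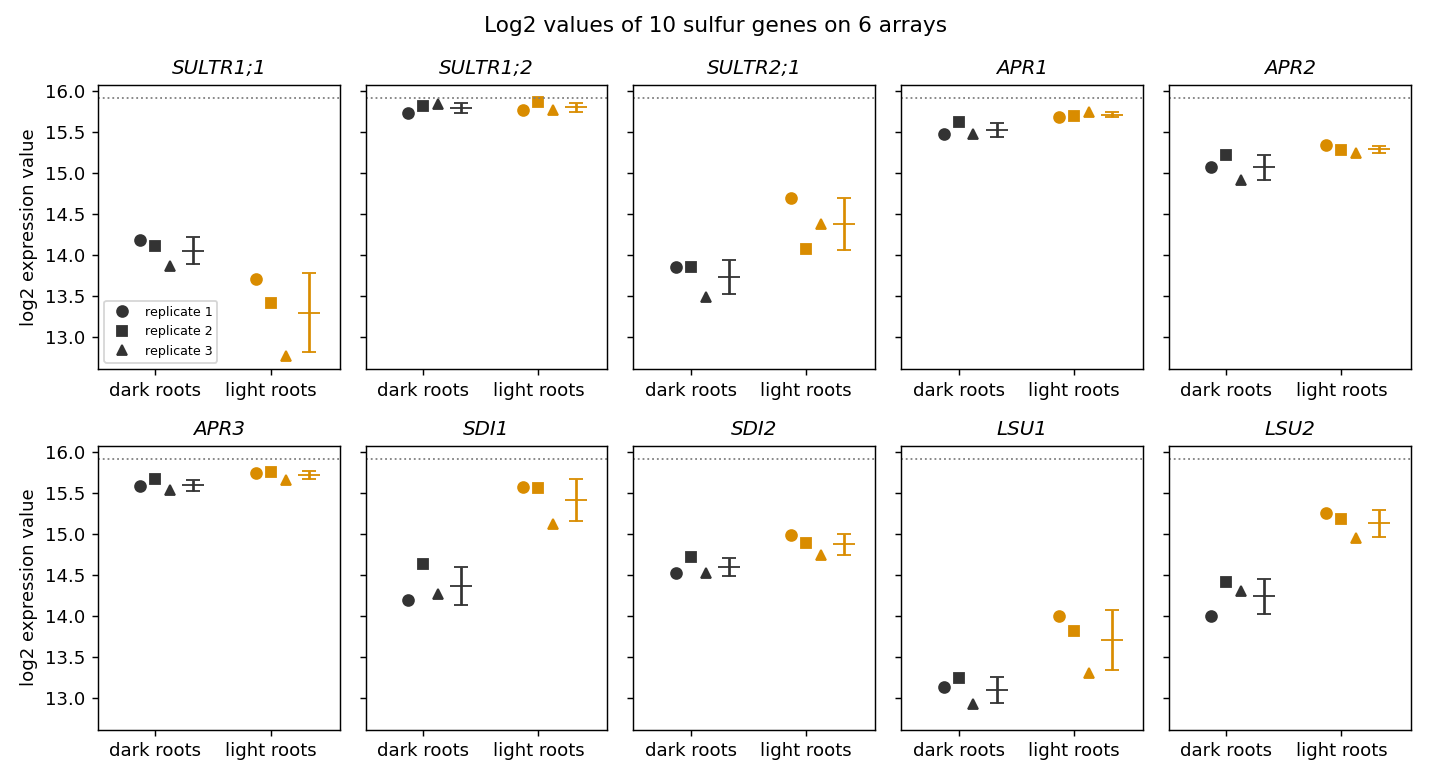
Log2 expression values of the 10 sulfur genes in dark-grown (dark symbols) and light-grown roots (orange symbols). Each symbol is an array, its shape gives the replicate number, the bar beside the symbols is the mean with its SD (n = 3), and the dotted line is the highest value of the scale, 15.92. SDI1 and LSU2 sit apart between the groups, and SULTR1;2 and the APR genes lie close under the dotted line in both.

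SDI1 encodes a protein named for its induction by sulfur deficiency, which in Arabidopsis acts to repress the synthesis of aliphatic glucosinolates. Its values were 14.20, 14.63 and 14.27 on dark arrays 1 to 3 and 15.57, 15.56 and 15.12 on light arrays 1 to 3. Every light value was above every dark value, and the lowest light value was that of replicate 3. The difference was 1.05 (SE 0.18, adjusted p = 0.0304 in limma), from 14.37 ± 0.23 in dark to 15.42 ± 0.26 in light roots (SD, n = 3). The 95% interval of the fold was 1.53 to 2.81. Without light replicate 3 the difference was 1.20 (adjusted p = 0.0294 in limma), and over the 6 fits that each left out 1 array it ran from 0.97 to 1.20.

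SDI2, the closest relative of SDI1 among the genes described here, was at 14.53, 14.72 and 14.53 in dark and 14.99, 14.89 and 14.74 in light roots. The groups did not overlap, with dark replicate 2 and light replicate 3 only 0.02 apart on the scale. The difference of 0.28 (SE 0.10, 95% interval 0.03 to 0.53) did not pass (adjusted p = 0.194 in limma). On each array the SDI1 value was set against the SDI2 value to test whether the pair differed in response. SDI1 minus SDI2 changed by 0.77 between dark and light roots, with an SD of 0.12 within dark and 0.15 within light arrays (n = 3 each), and no light array overlapped a dark array. The level of this quantity depends on the probes, so only its change can be read. An exact two-sided permutation test gave p = 0.10, the smallest that 3 against 3 arrays allow, and 0.20 adjusted over the 8 pairs of related genes compared in this way.

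The LSU genes encode small coiled-coil proteins that bind many partners and whose transcripts rise under low sulfur. LSU2 was at 14.00, 14.41 and 14.31 in dark and 15.26, 15.18 and 14.95 in light roots. The groups were apart by more than the spread within either. The difference was 0.89 (SE 0.14, adjusted p = 0.0261 in limma), and the 95% interval of the fold was 1.45 to 2.37. Leaving out each array in turn gave 0.77 to 0.98.

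LSU1 was at 13.13, 13.24 and 12.93 in dark and 14.00, 13.82 and 13.30 in light roots. The groups did not overlap, but light replicate 3 lay only just above dark replicate 2. The difference of 0.61 (SE 0.20, 95% interval 0.11 to 1.10) did not pass (adjusted p = 0.161 in limma). Without light replicate 3 it was 0.81 and passed (adjusted p = 0.0465 in limma). LSU1 minus LSU2 on the same array changed by -0.28 between dark and light roots, with an SD of 0.26 within dark and 0.20 within light arrays (n = 3 each, exact permutation p = 0.30, two-sided). The groups overlapped, and the change was -0.15 without dark replicate 1 and -0.17 without light replicate 3.

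Both LSU genes have a neighbouring copy in the TAIR10.1 RefSeq gene table, with no protein-coding gene between them. LSU3 lies beside LSU1 on chromosome 3, and LSU4 beside LSU2 on chromosome 5. LSU3 was at 14.06, 14.25 and 14.00 in dark and 14.91, 14.49 and 14.68 in light roots, a difference of 0.59 (SE 0.13) that did not pass (adjusted p = 0.0692 in limma). In 2 of 13 alternative fits LSU3 passed (lowest adjusted p = 0.0102 in limma). LSU4 was at 12.33, 12.59 and 12.29 in dark and 13.11, 12.98 and 12.87 in light roots. It rose by 0.58 (SE 0.12, adjusted p = 0.0477 in limma), and the call was lost without any 1 array. All 4 LSU genes thus had groups that did not overlap, with higher values in light, as did 12.0% of all models. In either direction, groups did not overlap for 28.4% of all models. Among models of similar mean signal it was 39.8% for LSU1, 34.9% for LSU2 and 40.4% for LSU3. Probes of close copies such as the LSU genes may read each other's transcripts, and probe sequences were not used here.

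**Figure D2:**
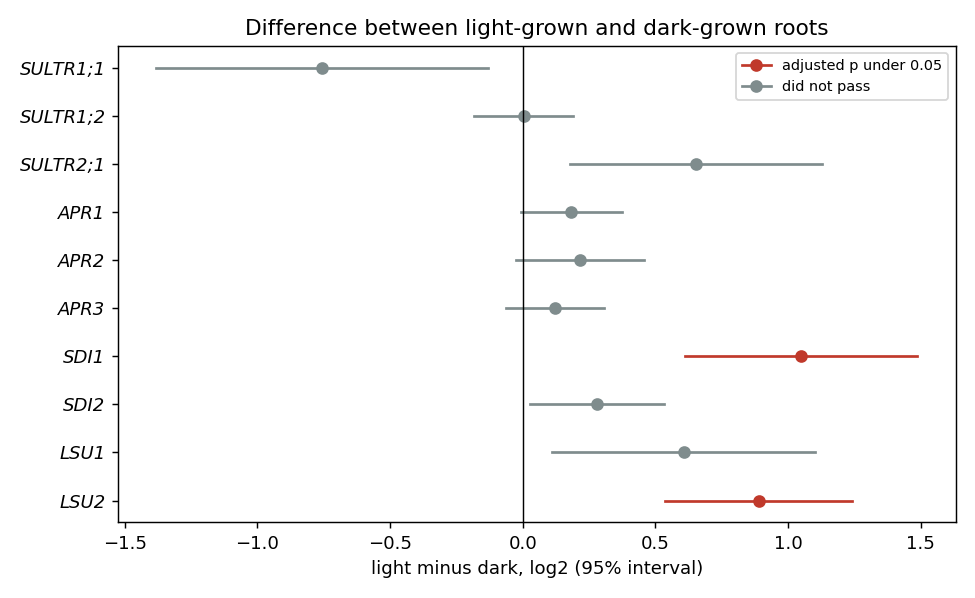
Light minus dark difference of each of the 10 genes on the log2 scale (points) with its 95% interval from limma (lines, n = 3 arrays per group). The intervals of SDI1 and LSU2, in red, passed the adjusted test, and those of SULTR1;1, SULTR2;1, SDI2 and LSU1 leave out 0 without passing it.

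None of the 3 sulfate transporter genes passed the test, and their measured differences ran from -0.76 to 0.65. SULTR1;1 and SULTR1;2 encode the high-affinity transporters that take up sulfate at the root surface, and SULTR1;1 is known to be strongly induced when sulfur is short. SULTR1;1 was at 14.19, 14.11 and 13.87 in dark and 13.71, 13.42 and 12.77 in light roots. All light values lay below all dark values, and light replicate 3 was the lowest of the 6. The difference was -0.76 (SE 0.25, 95% interval -1.38 to -0.13), or 1.69-fold higher in dark roots, which missed the threshold (adjusted p = 0.164 in limma). Without light replicate 3 the difference was -0.49 (adjusted p = 0.172 in limma), so that array alone moved the value by over 1.5 times. It was the only one of the 10 genes, all of which were examined, with a negative difference.

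SULTR1;2, the transporter that carries most sulfate uptake in well-supplied roots, was at 15.73, 15.82 and 15.85 in dark and 15.77, 15.87 and 15.77 in light roots. The groups overlapped, and the difference was 0.00 (SE 0.07, 95% interval -0.18 to 0.19, adjusted p = 0.988 in limma). Its values lay within 0.19 of the top of the scale, and 99.8% of models were dimmer, so a higher level could not have been read far above these values. SULTR2;2, its neighbour on chromosome 1, differed by 0.07 (SE 0.18).

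SULTR2;1 encodes a low-affinity transporter of the vascular tissue, which acts in moving sulfate from root to shoot. It was at 13.85, 13.85 and 13.49 in dark and 14.70, 14.07 and 14.38 in light roots. The groups did not overlap, with light replicate 2 the closest to the dark arrays. The difference of 0.65 (SE 0.19, 95% interval 0.18 to 1.13), a 1.57-fold higher level in light, did not pass (adjusted p = 0.125 in limma). With a variance prior that follows the signal and is robust to outlying genes, the same difference passed (adjusted p = 0.0361 in limma). That was the only 1 of 13 alternative fits in which it did, and over the 13 the adjusted p reached 0.266.

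Taken on the same array, SULTR1;1 minus SULTR2;1 changed by -1.41 between dark and light roots, with an SD of 0.06 within dark and 0.49 within light arrays (n = 3 each). This change was the largest in size among the 8 pairs compared, and it was -1.15 without light replicate 3. No light array overlapped a dark array, and the exact two-sided permutation test gave p = 0.10, which is the smallest possible, and 0.20 adjusted over the 8 pairs. The 2 pairs with SULTR1;2 changed by -0.76 (SULTR1;1 minus SULTR1;2) and -0.65 (SULTR1;2 minus SULTR2;1) at the same p. SULTR1;2 itself differed by 0.00, so these 2 pairs restate the differences of the other gene.

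The 3 APR genes encode plastid reductases that turn adenosine phosphosulfate into sulfite. None of them passed the test, and none had an unadjusted p under 0.05. All 3 differences were positive, from 0.12 to 0.22 with a median of 0.18. APR1 was at 15.48, 15.63 and 15.48 in dark and 15.69, 15.70 and 15.75 in light roots, with no overlap and a difference of 0.18 (SE 0.08, 95% interval -0.01 to 0.37, adjusted p = 0.251 in limma). APR2, the isoform that provides most of the reductase activity in Arabidopsis, was at 15.08, 15.22 and 14.92 in dark and 15.34, 15.28 and 15.25 in light roots. Its groups did not overlap either, and the difference was 0.22 (SE 0.10, 95% interval -0.03 to 0.46, adjusted p = 0.286 in limma). Without dark replicate 3 it was 0.14. APR3 was at 15.58, 15.67 and 15.54 in dark and 15.74, 15.76 and 15.66 in light roots. Light replicate 3 lay just under dark replicate 2, and the difference was 0.12 (SE 0.07, 95% interval -0.06 to 0.31, adjusted p = 0.430 in limma). The upper bounds of the intervals correspond to folds of 1.30 for APR1, 1.37 for APR2 and 1.24 for APR3 as measured on this scale.

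Whether the APR genes differ from each other in response could not be settled with 3 arrays per group, since the smallest p is 0.10 and all 3 lie near the top of the scale. The light minus dark change was -0.03 for APR1 minus APR2, 0.06 for APR1 minus APR3 and 0.09 for APR2 minus APR3, with exact two-sided permutation p-values of 0.70, 0.50 and 0.20 and the SD of each pair between 0.03 and 0.09 within a group. When all models were split into 10 equal classes by mean signal, all 3 lay in the brightest class, where the median difference in either direction was 0.0567 and 0.593% of models passed the test. In the class that holds SULTR1;1 and LSU1 the median difference was 0.162 and 7.57% passed. The within-group SD had a median of 0.0644 in the brightest class and 0.116 in that of SULTR1;1 and LSU1. SDI1, SDI2 and LSU2 fall in the class below the brightest, where 3.61% passed, and SULTR2;1 in the class below that, where 5.23% passed. Groups did not overlap for 22.0% of models in the brightest class, for 34.9% in that of SDI1, for 40.4% in that of SULTR2;1 and for 39.8% in that of SULTR1;1. Light means of 6 of the 10 genes lay within 1 log2 unit of the top of the scale. Whether the top of the scale reduced their measured differences was not tested.

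**Figure D3:**
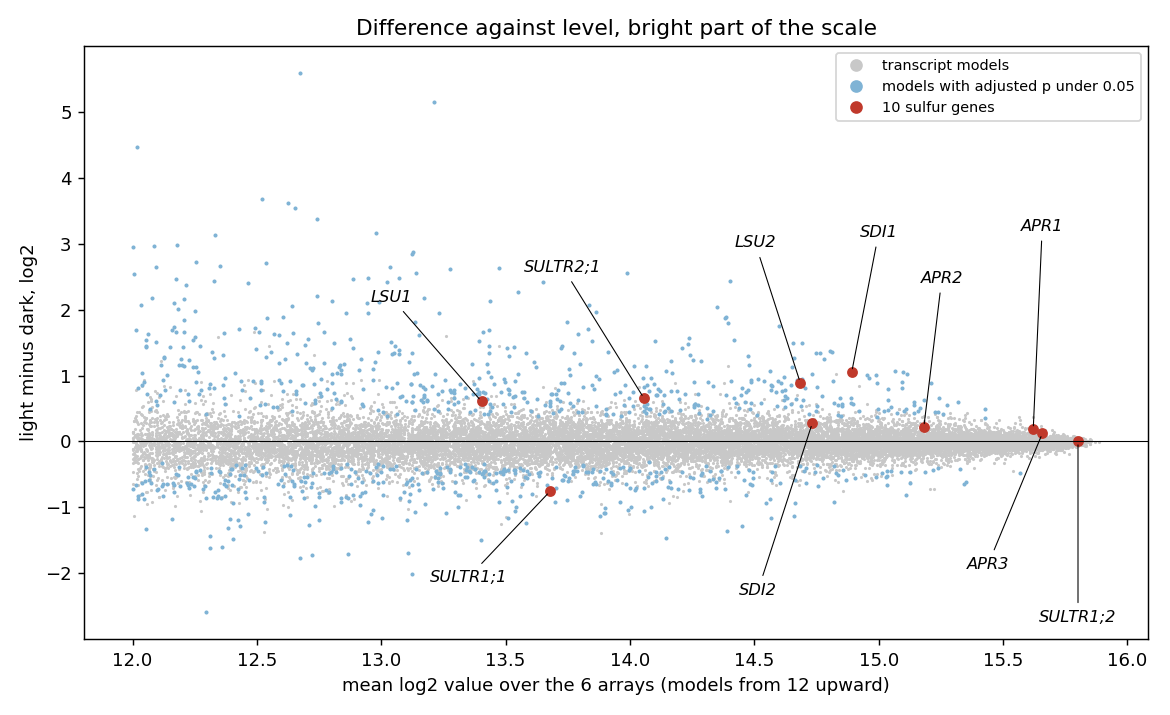
Light minus dark difference (log2) against the mean log2 value over the 6 arrays, for transcript models with a mean of 12 or more. Grey points are models, blue points those with adjusted p under 0.05 in limma, and red points the 10 sulfur genes. The spread of differences narrows toward the top of the scale, where SULTR1;2, APR1 and APR3 lie, and SDI1 and LSU2 lie above the dense grey band of models of similar level.

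Replicates of each group kept a similar position over the genes. Whether they did so over all models was not tested. Light replicate 3 was the lowest light array, ties included, for 8 of the 10 genes and light replicate 1 the highest for 7. Among dark arrays, replicate 2 was the highest, ties included, for 8 genes. Averaged over SDI1, SDI2, LSU1 and LSU2, each centred on its own mean, the dark arrays were at -0.46, -0.18 and -0.42 and the light arrays at 0.53, 0.43 and 0.10. The same average over the APR genes gave -0.11, 0.02 and -0.17 in dark and 0.10, 0.09 and 0.07 in light roots. Light replicate 3 was the light array nearest to the dark ones in both averages, and dark replicate 2 the dark array nearest to the light ones.

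Other loci among the 32627 on the array lay close to these profiles. The APR profile lay closest to those of HSBP (AT4G15802), CKS1 (AT2G27960) and AT5G01970, with root mean square differences of 0.022, 0.025 and 0.025 log2 units over the 6 arrays. APR1, APR2 and APR3 themselves lay at 0.036 to 0.043 from it, and 55 loci outside the 10 were nearer than the farthest of them. The SDI and LSU profile lay closest to AT5G53680 and AT5G45095, both at 0.048, and AT5G17010 at 0.058. Its own 4 genes lay at 0.119 to 0.223, and 716 other loci were nearer than the farthest of them. AT5G53680 was dim, at a mean of 5.64 in dark and 6.39 in light roots.

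Among 42 other genes of sulfur transport, assimilation and deficiency, 5 rose, 0 fell and 37 missed the threshold of limma's test. At an unadjusted p under 0.05, 10 of the 42 were higher and 2 lower. Over all 37118 models, 3338 were higher and 4518 lower at that threshold, 21.2% in either direction. The median difference of the 42 was 0.10. The genes that rose were GGCT2;1, BGLU28, SULTR3;2, APS3 and LSU4. The 5 are 11.9% of the 42, where 3.22% of all models passed as higher and 2.43% as lower. With 1 array left out, 1 to 3 of the 42 passed in each of the 6 fits.

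The other deficiency genes held the largest of these differences, with 3 of 7 higher, none lower and a median of 0.58. GGCT2;1 encodes a cyclotransferase that breaks down glutathione. It was at 10.67, 11.27 and 11.44 in dark and 13.49, 13.03 and 13.35 in light roots, a rise of 2.16 (SE 0.23, adjusted p = 0.00815 in limma) or 4.48-fold. It passed without any 1 array as well, and missed the threshold with the replicate number as a block (adjusted p = 0.0511 in limma). BGLU28 encodes a beta-glucosidase that has been linked to the breakdown of glucosinolates under low sulfur. It was at 9.49, 9.34 and 9.65 in dark and 12.94, 11.52 and 11.63 in light roots, a rise of 2.54 (SE 0.39, adjusted p = 0.0238 in limma). Light replicate 1 lay more than 1 log2 unit above the other light arrays. The difference was 2.08 without light replicate 1, and the call was lost without any 1 dark array or light replicate 2. SLIM1 itself was at 13.16, 13.16 and 12.97 in dark and 13.04, 13.04 and 12.81 in light roots, a difference of -0.13 (SE 0.10) that did not pass (adjusted p = 0.553 in limma).

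Of 9 other SULTR genes, 1 rose, 0 fell and 8 missed the threshold, with a median of 0.14. SULTR3;2, of the group linked to sulfate import into plastids, was at 8.02, 7.84 and 7.86 in dark and 8.91, 8.56 and 8.64 in light roots, a rise of 0.80 (SE 0.12, adjusted p = 0.0210 in limma) at a low level. The call was lost without any 1 dark array, without light replicate 3, or with the signal-dependent variance prior (adjusted p = 0.0617 in limma). SULTR3;5, which acts with SULTR2;1 in the root vasculature, differed by 0.23 (SE 0.08, adjusted p = 0.168) and SULTR3;4 by -0.24 (SE 0.08, adjusted p = 0.181 in limma). With the signal-dependent variance prior SULTR3;5 passed (adjusted p = 0.0484 in limma), in 1 of 13 alternative fits, and SULTR3;4 passed in 0.

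Of 6 genes of sulfate activation, sulfite reduction and sulfite oxidation, 1 rose, 0 fell and 5 missed the threshold, with a median of 0.02. APS3, an isoform of the ATP sulfurylase that forms adenosine phosphosulfate, was at 13.55, 13.39 and 13.20 in dark and 14.23, 13.97 and 14.16 in light roots. It rose by 0.74 (SE 0.12, adjusted p = 0.0291 in limma), and the call was lost without any 1 array. The isoform APS4 differed by -0.25 (SE 0.11, adjusted p = 0.265) and APS2 by 0.16 (SE 0.09, adjusted p = 0.394 in limma). APS1 and the sulfite reductase gene SIR, both within 0.3 of the top of the scale, differed by 0.02 (SE 0.06) and 0.03 (SE 0.07).

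In the branch that phosphorylates adenosine phosphosulfate for use in sulfation, 0 of 5 genes passed in limma, with a median of 0.24. At an unadjusted p under 0.05, 2 of the 5 were higher and 0 lower, against 21.2% of all models in either direction. The kinase gene APK3 differed by 0.24 (SE 0.09, adjusted p = 0.188) and the phosphatase gene SAL1 by 0.26 (SE 0.10, adjusted p = 0.226 in limma). In cysteine and glutathione synthesis 0 of 15 passed in limma, with a median of 0.07. Of the 15, 1 was higher and 1 lower at an unadjusted p under 0.05, against 21.2% of all models in either direction. Those 2 encode serine acetyltransferases, which make the carbon precursor of cysteine: SERAT2;1 differed by 0.24 (SE 0.07, adjusted p = 0.131) and SERAT3;1 by -0.27 (SE 0.09, adjusted p = 0.142 in limma). With the signal-dependent variance prior SERAT2;1 passed (adjusted p = 0.0213 in limma), in 1 of 13 alternative fits, and SERAT3;1 passed in 0. Of these 15 genes, 10 had light means within 1 log2 unit of the top of the scale.

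**Figure D4:**
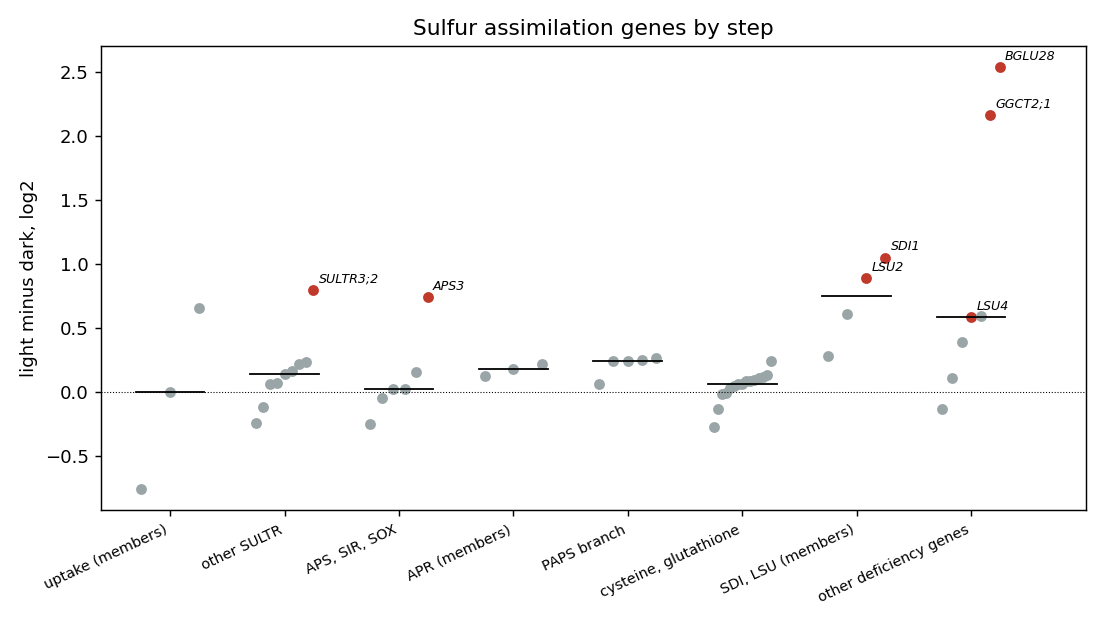
Light minus dark difference (log2) of the 10 genes and 42 other sulfur genes, grouped by step of the pathway, with the 10 genes marked as members. Each point is a gene, red where adjusted p was under 0.05 in limma (n = 3 arrays per group), and the horizontal bars are group medians. The largest rises, of BGLU28 and GGCT2;1, stand among the deficiency genes, while the cysteine and glutathione genes lie between -0.27 and 0.24.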

How the data were processed

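The deposited values are log2 expression values of 6 NimbleGen arrays for 37118 transcript models, used without further scaling. Their sorted columns were equal within 0.01, so the values were already quantile normalized. The authors used limma, per the submitters' processing notes, which give no version. How background was corrected, how probes were summarised and which annotation the array follows is unstated in the labels and the file. The light minus dark difference of each model was estimated in limma 3.58.1 under R 4.3.3 (two-sided, no covariate, Benjamini-Hochberg over all models, threshold 0.05), after a test on simulated data. Gene symbols follow RefSeq's table for TAIR10.1, which names 9 of the 10 members; SDI2 is listed there by locus only. Of 43 other sulfur genes 1 was left out because the table names it otherwise. The brightest model stood for a locus. Named genes are the members, other sulfur genes that passed, up to 2 more per list with the lowest p (plus SULTR2;2, APS1 and SIR, chosen after their values were seen), and the 3 loci nearest each profile by root mean square difference. The members and lists were chosen with earlier results of these data known. The number of arrays, 3 per group, limits the precision. Figures used Python 3.11.15 and matplotlib 3.10.9.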

Additional observations from a re-analysis of the deposited data

How the results depend on the processing

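Quantile normalizing again and centring on array medians could not test the calls, since the arrays already shared their sorted values. The mean of a locus's models could not change the members' differences, as each member has 1 model. Array weights could change them, and gave 1.15 for SDI1 and 0.99 for LSU2. With array weights 2 members and 5 other sulfur genes were higher and none lower. Without any 1 array, 0 to 3 members and 1 to 3 other sulfur genes passed as higher, and over all models 607 to 905 passed as higher and 158 to 473 as lower. SDI1 and LSU2 each passed in 7 of 13 alternative fits, with adjusted p up to 0.114 and 0.0947. These 7 include the settings that could not change the members' differences. Each of the 2 genes passed in 1 of the 6 fits without 1 array, and neither passed with the replicate block. SULTR1;2 turned sign around 0 (-0.032 to 0.028 without any 1 array). Deviations from the group means correlated at 0.01, 0.06 and 0.41 between arrays of the same replicate number. As not every pair exceeded 0.1, arrays were not paired by number, and a factor shared by the arrays numbered 3 was not tested. With a replicate block, 0 members and 1 other sulfur gene (SULTR3;2, adjusted p = 0.0393) passed, and 668 models were higher and 290 lower. With the dimmest models removed (below the 25th percentile) 1588 were higher and 1627 lower, and with the trend and robust variance prior 1852 and 1879, including 3 members. The cause of these shifts was not tested. Signal near the top of the scale limits what can be said of SULTR1;2 and the APR genes. The light means of SDI1 and LSU2 also lay near it, 0.50 and 0.79 below the top, and an effect on their folds was not tested.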
